A study of Mus musculus with 9 samples.

Results

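The genes described are 9 members of the MHC class II antigen presentation pathway, taken as the rows of the count table that carry the symbols Cd74, H2-Aa, H2-Ab1, H2-Eb1, H2-DMa, H2-DMb1, Ciita, Cd83 and Fscn1. All 9 had a row among the 49585 genes of the table, and 6 of them were among the 11619 genes with enough counts for a test. They were followed across 3 populations sorted from mouse haematopoietic stem cell (HSC) cultures, each sequenced as bulk RNA in 3 replicates. The cultures were seeded with CD34-CD150+KSL cells (KSL, Kit positive, Sca-1 positive, lineage negative) from bone marrow of wild-type C57BL/6 mice. All groups were therefore expanded in the same medium, F12 with 0.1% polyvinyl alcohol, thrombopoietin at 100 ng/ml and stem cell factor at 10 ng/ml. The culture lasted 10 days by the design text, whereas the growth protocol gives a week.

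The sorted gates were CD201+CD150+CD48-KSL (shortened to CD201+CD48-), CD201+CD150+CD48+KSL (shortened to CD201+CD48+) and CD201-KSL. CD201 is the endothelial protein C receptor, and with CD150 and without CD48 it marks cells enriched for HSC activity. Titles of the CD201-KSL libraries add CD150+CD48+ to the gate and their treatment label does not, so the exact gate of that group is uncertain. The labels do not give the age or number of the mice, or whether replicates came from separate cultures, so p-values rest on a spread that may be only technical. Total counts ran from 3810123 to 7072885 per library. Procr, the gene of CD201, averaged 63.2 CPM (counts per 1000000 of the effective library size) in CD201+CD48-, 26.5 in CD201+CD48+ and 3.56 in CD201-KSL cells, and Cd48 averaged 5.86, 83.3 and 124.7 CPM. CD201-KSL replicate 3 stood apart from its group: counts in it differed from those of the other CD201-KSL libraries with a chi-square of 12.8 to 13.4 per degree of freedom, against 1.36 to 3.62 for all other pairs within groups.

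MHC class II molecules present peptides from endosomes to CD4+ T cells. Each is a pair of an alpha and a beta chain, in C57BL/6 mice H2-Aa with H2-Ab1, and the invariant chain encoded by Cd74 holds the pair together and carries it to the endosome. There cathepsin proteases trim the invariant chain, and the chaperone H2-DM exchanges its last fragment for a peptide. Transcription of these genes in dendritic cells, B cells and macrophages depends on the coactivator CIITA, which is recruited by factors bound to the X and Y boxes of their promoters. H2-Eb1 encodes the beta chain of the second class II molecule, which C57BL/6 mice do not assemble because their alpha chain gene is defective. CD83 and fascin (Fscn1) belong to no class II complex: CD83 is a surface protein that protects class II molecules from degradation, and fascin bundles actin in mature dendritic cells.

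The promoter sequences are shown first because H2-Aa, H2-Eb1 and H2-DMb1 share a pair of cores that the windows searched for Fscn1 and H2-DMa do not hold. RefSeq start sites of GRCm38.p6, the assembly of mm10, were available for 5 of the 9 members, and the sequences below are the 120 bases before the start on the strand of the gene. Capitals mark matches to CTNGNAAC, a core of the X box, and to GATTGG, a core of the Y box, searched on both strands. Both cores, and the range of spacing searched below, were chosen with these sequences in view.
H2-Aa: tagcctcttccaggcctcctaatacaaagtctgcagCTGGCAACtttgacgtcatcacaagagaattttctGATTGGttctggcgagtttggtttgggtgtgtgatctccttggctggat
H2-Eb1: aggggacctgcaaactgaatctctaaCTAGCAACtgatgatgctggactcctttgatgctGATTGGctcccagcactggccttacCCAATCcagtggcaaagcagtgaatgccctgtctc
H2-DMb1: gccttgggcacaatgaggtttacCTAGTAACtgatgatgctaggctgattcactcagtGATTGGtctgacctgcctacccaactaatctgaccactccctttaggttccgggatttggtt
Fscn1: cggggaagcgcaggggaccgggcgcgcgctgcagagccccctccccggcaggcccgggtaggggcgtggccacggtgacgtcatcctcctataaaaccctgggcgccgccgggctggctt
These windows lie at chr17:34287824-34287943 (minus strand), chr17:34305747-34305866 (plus), chr17:34153071-34153190 (plus) and chr5:142960235-142960354 (plus).

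The distance from the first base of the X core to the first base of the Y core was 35 bases in H2-Aa and H2-DMb1 and 34 bases in H2-Eb1. In the 250 bases before all 32851 start sites listed, the X core occurred in 10.9%, the Y core in 14.6% and both in 1.63%. An X core followed 30 to 40 bases later by a Y core on the same strand occurred before 9 start sites (0.0274%). The 3 H2 members are among these 9 by that choice of cores and range, and H2-Ob, a modulator of H2-DM, is another. The Fscn1 window held neither core. Of the 2 start sites listed for H2-DMa, neither held an X core, and 1 held a Y core further upstream than the 120 bases. These 2 start sites follow chr17:34122831 and chr17:34125517, inside the RefSeq span of H2-DMa (34119693 to 34139101), which overlaps Brd2. Whether a start further along that span holds the cores was not searched. A match to these letters is not a measured binding site.

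Cd74, which lies on chromosome 18 (60803849 to 60812652), was by far the most abundant of the 9 genes in the CD201+ populations and fell in steps across the 3 gates. Its raw counts were 529, 429 and 471 in the CD201+CD48- libraries, 254, 155 and 229 in the CD201+CD48+ libraries and 27, 36 and 26 in the CD201-KSL libraries. No library of a group overlapped with any of another. The level was 102.0 ± 7.75 CPM in CD201+CD48-, 34.7 ± 7.59 in CD201+CD48+ and 6.47 ± 1.11 in CD201-KSL cells (SD, n = 3 each). The log2 fold change was 3.97 ± 0.17 between CD201+CD48- and CD201-KSL cells (SE; edgeR quasi-likelihood test, Benjamini-Hochberg adjusted p = 1.37e-10), rank 71 of the 11619 genes ordered from the most increased. It was 2.42 ± 0.19 between CD201+CD48+ and CD201-KSL cells (adjusted p = 2.42e-07) and 1.55 ± 0.13 between the CD201+ populations (adjusted p = 8.6e-07). The first 2 of these comparisons share the CD201-KSL libraries. Without CD201-KSL replicate 3 the values against CD201-KSL cells were 3.88 and 2.33.

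In bulk RNA, more cells that express a gene and more RNA per cell cannot be told apart. This applies to every difference given here.

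**Figure D1:**
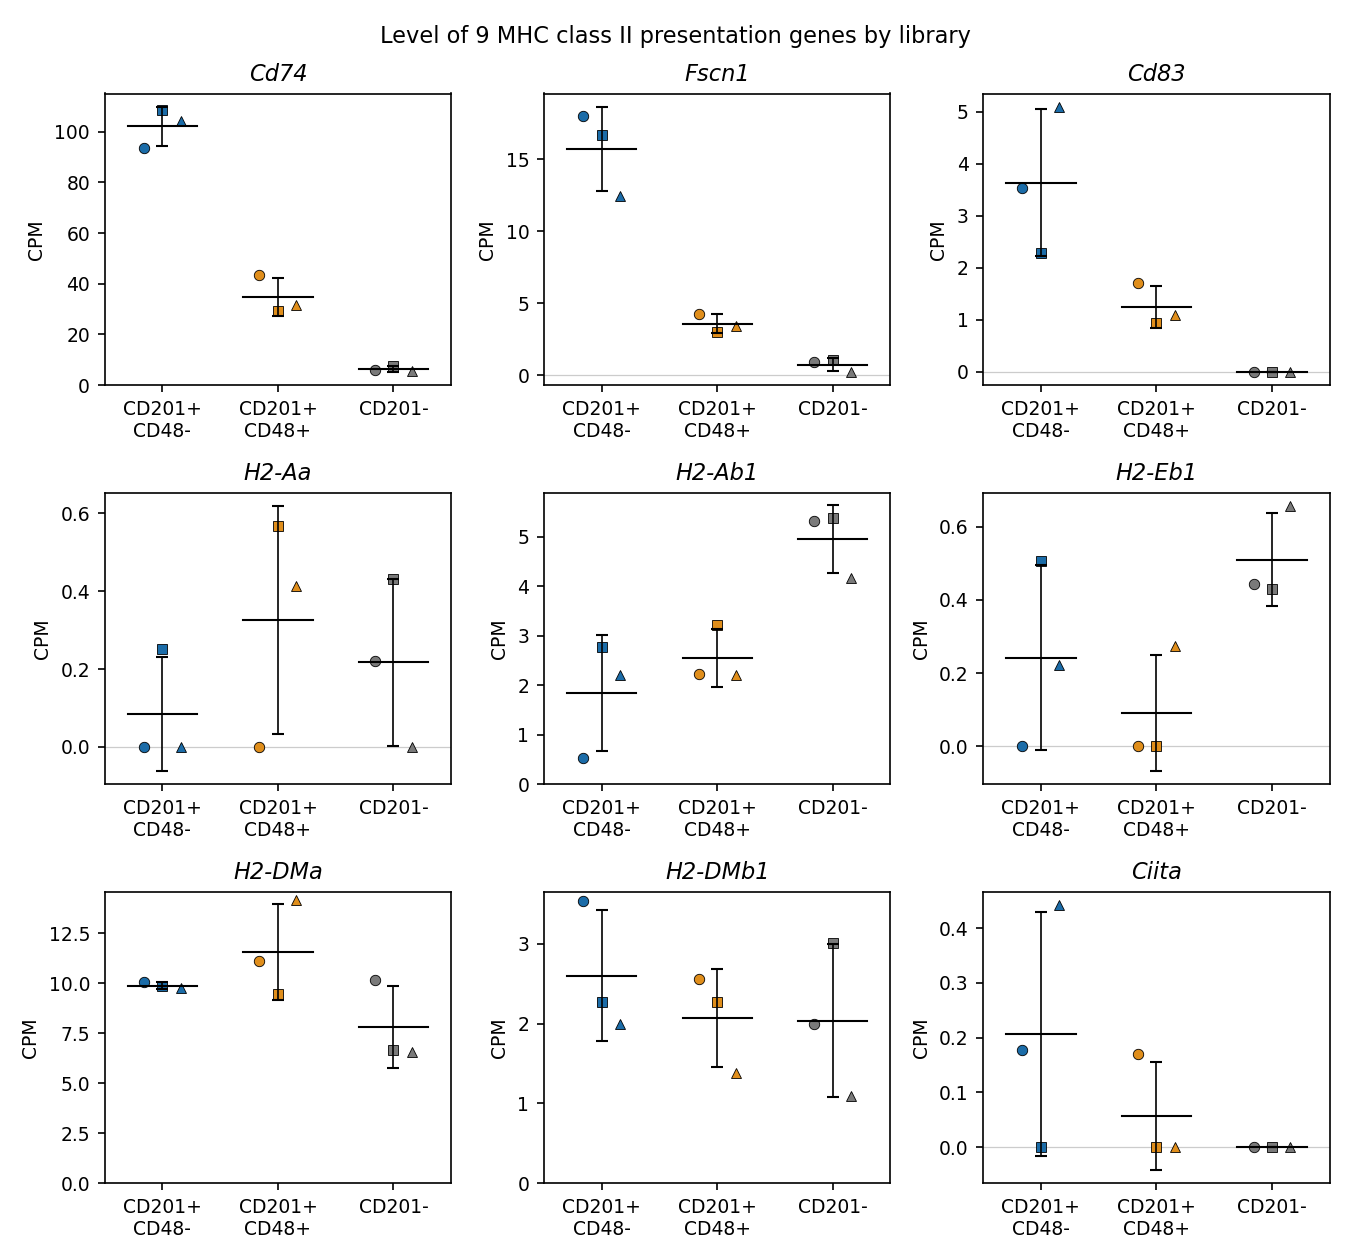
Level of each of the 9 genes in CPM (vertical axes, linear, a separate scale for each gene) in the 3 sorted populations; points are libraries (circle, square and triangle for replicates 1, 2 and 3), horizontal lines are means and bars SD. Cd74, Fscn1 and Cd83 descend from CD201+CD48- to CD201-KSL cells, H2-Ab1 is highest in CD201-KSL cells, and H2-Aa, H2-Eb1 and Ciita stay below 1 CPM in every library.

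Of the class II chain genes H2-Aa, H2-Ab1 and H2-Eb1, only H2-Ab1 had enough counts for a test, and it did not follow Cd74. H2-Ab1 (chromosome 17, 34263227 to 34269418), the beta chain of the class II molecule that C57BL/6 mice assemble, had 3, 11 and 10 counts in the CD201+CD48- libraries, 13, 17 and 16 in the CD201+CD48+ libraries and 24, 25 and 19 in the CD201-KSL libraries. The CD201-KSL libraries were the 3 highest of the 9, and those of the CD201+ populations overlapped. Means were 1.84 ± 1.17, 2.54 ± 0.579 and 4.95 ± 0.683 CPM in the same order (SD, n = 3 each). H2-Ab1 was lower in CD201+CD48- than in CD201-KSL cells (log2 fold change -1.51 ± 0.41, edgeR adjusted p = 0.00664; pooled count ratio 0.343, exact binomial 95% interval 0.206 to 0.553, counting error only). Without CD201+CD48- replicate 1, the library with 3 counts, the value was -0.99 (edgeR adjusted p = 0.0385). Between CD201+CD48+ and CD201-KSL cells it was -0.97 ± 0.36 and did not pass (edgeR adjusted p = 0.0551, from 0.0127 to 0.176 over 16 alternative settings, 4 of them below 0.05). It passed without CD201-KSL replicate 3 (-1.08, edgeR adjusted p = 0.0127) and without CD201+CD48- replicate 1 (-0.97, edgeR adjusted p = 0.024). Between the CD201+ populations the difference was -0.54 ± 0.44 (edgeR adjusted p = 0.469), and -0.02 without CD201+CD48- replicate 1.

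H2-Aa (chromosome 17, 34282744 to 34287823), the alpha chain partner of H2-Ab1, was close to undetected. It had 0, 1 and 0 counts in CD201+CD48-, 0, 3 and 3 in CD201+CD48+ and 1, 2 and 0 in CD201-KSL libraries, 10 counts in all. H2-Eb1 (chromosome 17, 34305867 to 34316674) had 0, 2 and 1, then 0, 0 and 2, then 2, 2 and 3 counts, 12 in all. Every one of the 9 libraries had at most 3 counts of either gene, and neither entered the test. The ratio of pooled H2-Aa counts between CD201+CD48+ and CD201-KSL cells was 1.49, with an exact binomial 95% interval of 0.318 to 9.21. For H2-Eb1, CD201+CD48- to CD201-KSL cells gave 0.416 (0.0694 to 1.82) and CD201+CD48+ to CD201-KSL cells 0.213 (0.0216 to 1.12). Differences of either gene between the populations were not detectable at this depth.

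Ciita (chromosome 16, 10480014 to 10531064), the master coactivator of class II transcription, had 4 counts over the 9 libraries. CD201+CD48- replicate 1 had 1 and replicate 3 had 2, CD201+CD48+ replicate 1 had 1, and the other 6 libraries had 0. The 0 counts in the CD201-KSL group allow a level of up to 0.219 CPM (3 counts over the group), and no population had more than 3 counts, so no fold was computed. The RefSeq span of Ciita overlaps the gene Dexi, and the labels do not say whether counting used strand.

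Cd74 and H2-Ab1, which ran opposite ways between CD201+CD48- and CD201-KSL cells, were also read within each library as a ratio. This ratio does not depend on library scaling. It uses the same counts as above, so it is no independent support. Between the CD201+ populations H2-Ab1 itself did not pass (edgeR adjusted p = 0.469). Cd74 had 176.3, 39.0 and 47.1 counts per H2-Ab1 count in the CD201+CD48- libraries, 19.5, 9.12 and 14.3 in the CD201+CD48+ libraries and 1.12, 1.44 and 1.37 in the CD201-KSL libraries. The 3 groups did not overlap in this ratio, and CD201+CD48- replicate 1, with 3 counts of H2-Ab1, was the highest. Mean log2 ratios were 6.10, 3.77 and 0.38. Each of the 3 differences between populations had p = 0.1 in a two-sided exact permutation test, the smallest that 3 against 3 libraries can give. Per kilobase of exon, Cd74 stood at 40.6 CPM and H2-Ab1 at 0.717 in CD201+CD48- cells, against 2.57 and 1.93 in CD201-KSL cells.

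**Figure D2:**
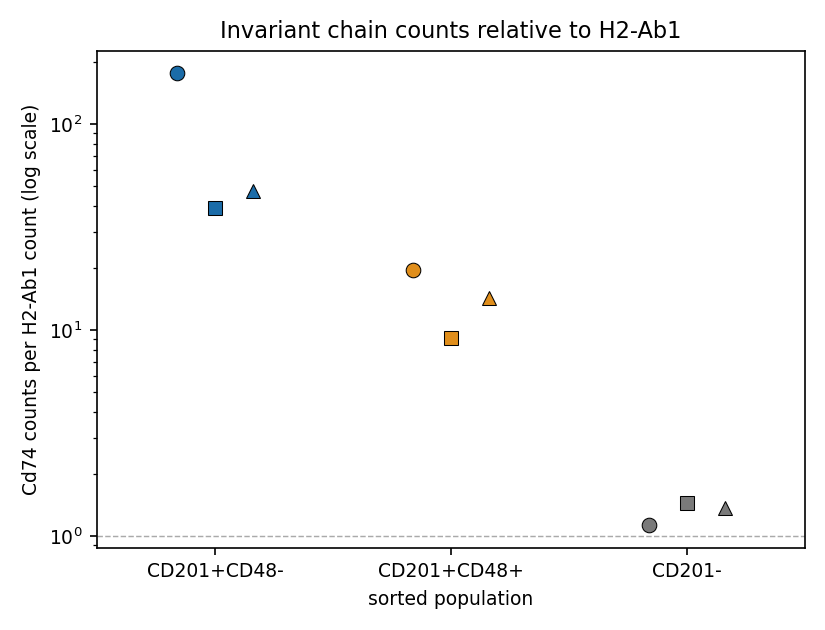
Counts of Cd74 per count of H2-Ab1 in each library (vertical axis, log scale) for the 3 sorted populations (horizontal axis); each point is a library (circle, square and triangle for replicates 1, 2 and 3) and the dashed line marks equal counts. The CD201-KSL libraries lie between 1.12 and 1.44, the CD201+CD48+ libraries between 9.12 and 19.5 and the CD201+CD48- libraries between 39.0 and 176.3.

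The H2-DM chaperone genes showed smaller differences. H2-DMa (chromosome 17, 34119693 to 34139101), the alpha chain, had 57, 39 and 44 counts in CD201+CD48-, 65, 50 and 103 in CD201+CD48+ and 46, 31 and 30 in CD201-KSL libraries. The groups overlapped in each comparison. Its level was 9.89 ± 0.163, 11.6 ± 2.39 and 7.81 ± 2.06 CPM (SD, n = 3 each). The difference between CD201+CD48+ and CD201-KSL cells passed narrowly (log2 fold change 0.59 ± 0.21, edgeR adjusted p = 0.0484). Of 17 alternative settings, 11 ended this call (edgeR adjusted p from 0.0142 to 0.247). It was lost without any of the CD201+CD48- libraries (0.58 each), without CD201-KSL replicate 2 (0.48) or 3 (0.49) and without CD201+CD48+ replicate 1 (0.62) or 3 (0.40). With the replicate number as a block it was 0.58 (edgeR adjusted p = 0.0681). The RefSeq span of H2-DMa overlaps Brd2, an abundant chromatin reader gene that averaged 310.9, 340.4 and 444.1 CPM and was lower in CD201+CD48- and in CD201+CD48+ cells, so reads in the shared stretch could belong to either gene. CD201+CD48- cells differed in H2-DMa neither from CD201-KSL (0.34 ± 0.22, adjusted p = 0.224) nor from CD201+CD48+ cells (-0.24 ± 0.20, adjusted p = 0.472) at the threshold of 0.05 in the edgeR test.

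H2-DMb1 (chromosome 17, 34153191 to 34160229), a beta chain, had 20, 9 and 9 counts in CD201+CD48-, 15, 12 and 10 in CD201+CD48+ and 9, 14 and 5 in CD201-KSL libraries. The groups overlapped, and no comparison passed in the edgeR test (adjusted p = 0.484, 0.987 and 0.566). Its pooled count ratio between CD201+CD48- and CD201-KSL cells was 1.32, with an exact binomial 95% interval of 0.788 to 2.23. The neighbouring copy H2-DMb2 had 1, 11 and 3 counts over the CD201+CD48-, CD201+CD48+ and CD201-KSL groups, and the labels do not say how reads shared by such copies were assigned.

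Fscn1 and Cd83, the members linked to mature dendritic cells, had, like Cd74, their highest levels in CD201+CD48- and their lowest in CD201-KSL libraries. Fscn1 (chromosome 5, 142960355 to 142973189) had 102, 66 and 56 counts in CD201+CD48-, 25, 16 and 25 in CD201+CD48+ and 4, 5 and 1 in CD201-KSL libraries. The groups did not overlap in CPM. Its log2 fold change was 4.39 ± 0.35 between CD201+CD48- and CD201-KSL cells (edgeR adjusted p = 8.22e-08), 2.26 ± 0.44 between CD201+CD48+ and CD201-KSL cells (adjusted p = 0.00137) and 2.13 ± 0.24 between the CD201+ populations (adjusted p = 2.08e-05). Against CD201-KSL cells the values were 3.97 and 1.84 without CD201-KSL replicate 3, the library with 1 count. Fscn1 passed the count filter through its CD201+ libraries alone, where it was higher. Its calls against CD201-KSL cells are therefore not independent of that filter.

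Cd83 (chromosome 13, 43785112 to 43803133) had 20, 9 and 23 counts in CD201+CD48-, 10, 5 and 8 in CD201+CD48+ and 0 in each CD201-KSL library. The 3 groups did not overlap in CPM. It passed the count filter through the 3 CD201+CD48- libraries alone, the group where it was highest, so no p-value is given for it. Against a floor of 3 counts over the CD201-KSL group, Cd83 was at least 16.8-fold higher in CD201+CD48- and at least 5.72-fold higher in CD201+CD48+ cells. The ratio of pooled counts between the CD201+ populations was 2.94, with an exact binomial 95% interval of 1.77 to 5.04 (counting error only).

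**Figure D3:**
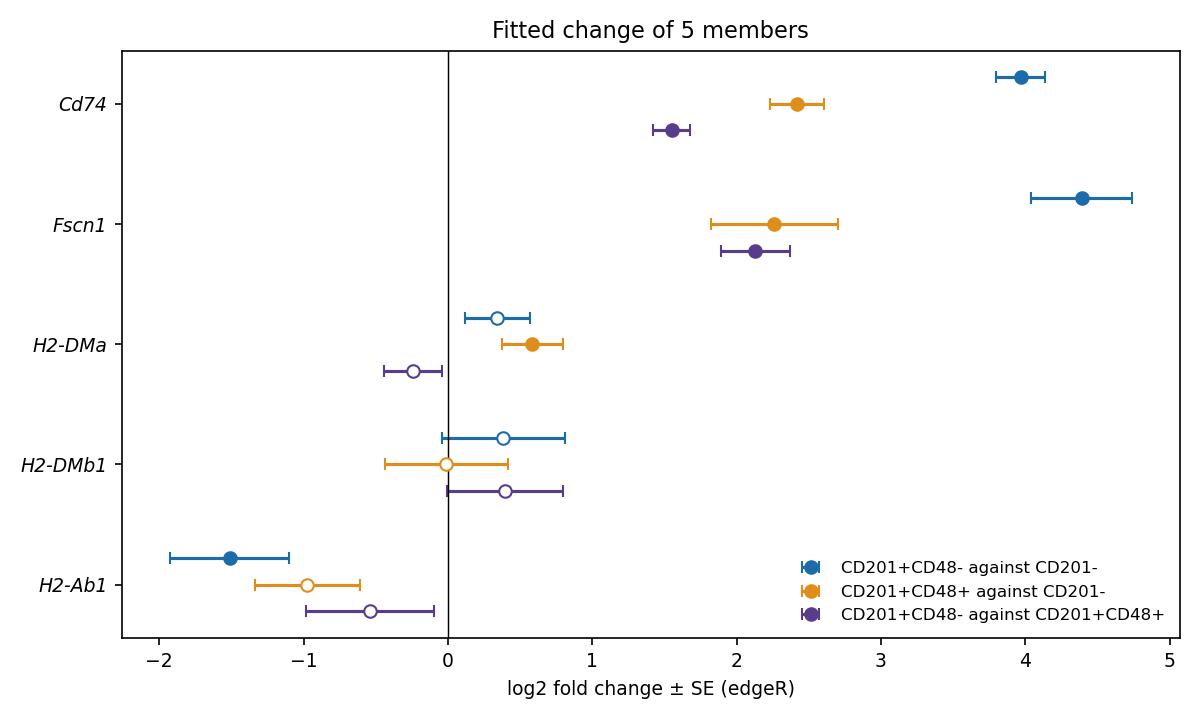
Fitted log2 fold change (horizontal axis) with SE bars for 5 of the members tested, in the 3 comparisons; filled points passed the edgeR test at an adjusted p of 0.05 and open points did not. Cd83, which passed the count filter through 1 group only, is not drawn. Fscn1 passed that filter through its CD201+ libraries only. Cd74 (3.97) and Fscn1 (4.39) lie far to the right for CD201+CD48- against CD201-KSL cells and H2-Ab1 (-1.51) to the left.

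Leaving out Cd83, 2 of the other 5 members with enough counts were higher and 1 was lower in CD201+CD48- than in CD201-KSL cells, where 24.2% of all tested genes were called higher and 23.9% lower. In CD201+CD48+ against CD201-KSL cells 3 of 5 were higher and none lower, against 14.8% and 14.3% of all genes. Between the CD201+ populations 2 of 5 were higher in CD201+CD48- cells and none lower, against 9.05% and 6.31%. Over all genes, scaling by library size alone gave 3974 higher and 1685 lower in place of 2807 and 2778 for CD201+CD48-, and 2701 and 851 in place of 1723 and 1661 for CD201+CD48+, each against CD201-KSL cells. These counts describe members that had enough counts, Fscn1 through its CD201+ libraries, and not the pathway. Among the members tested, patterns over the 9 libraries were most like that of Cd74 for Cd83 (Pearson r of log2 CPM 0.98) and Fscn1 (0.97), lower for H2-DMa (0.51) and H2-DMb1 (0.38), and opposite for H2-Ab1 (-0.76). Of the 11619 tested genes, Cd74 itself included, 127 had a higher r than Cd83, 178 than Fscn1 and 9367 than H2-Ab1. Such likeness to Cd74 is therefore not particular to the members.

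Among all tested genes with a gene name, those whose log2 CPM followed Cd74 closely over the 9 libraries included Palld (r = 0.996), an actin-associated protein gene, Sort1 (0.994), which encodes the sorting receptor sortilin, Tead2 (0.994), a partner of the Hippo pathway coactivators, and Ppp1r16b (0.992), a phosphatase subunit gene. These values describe likeness across libraries that fall into 3 groups.

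A list of 9 genes of endosomal processing holds proteases that cut the invariant chain and ready antigens, the thiol reductase gene Ifi30 and the protease inhibitor gene Cst3. All 9 were tested. This list and those below were chosen with earlier results of these data known. Their counts beside the shares of all genes are therefore descriptions and no test of the lists. In CD201+CD48- against CD201-KSL cells 5 rose and 1 fell, with a median log2 fold change of 0.62, whereas 24.2% of all tested genes rose and 23.9% fell with a median of 0.0032. In CD201+CD48+ against CD201-KSL cells 4 rose and 1 fell (median 0.35; 7 and 0 when scaled by library size alone), beside 14.8% and 14.3% of all genes. Between the CD201+ populations 4 were higher and none lower in CD201+CD48- cells (median 0.24), beside 9.05% and 6.31%. Ctss, which encodes cathepsin S, the main protease of the late invariant chain fragment, averaged 16.8 ± 0.743, 8.72 ± 1.74 and 1.02 ± 0.329 CPM, and each of the 3 differences passed (log2 fold change 4.01 ± 0.28 for CD201+CD48- against CD201-KSL cells, edgeR adjusted p = 2.44e-08). Ctsh, the cathepsin H gene, had 82, 22 and 2 counts over the groups, a pattern of the same order. Ctsl, the cathepsin L gene, averaged 37.7 ± 5.83, 22.8 ± 3.32 and 18.1 ± 1.67 CPM. It was higher in CD201+CD48- cells than in CD201-KSL (1.05 ± 0.15) and in CD201+CD48+ cells (0.71 ± 0.14). Ctsb, the cathepsin B gene, exceeded its CD201-KSL level in CD201+CD48- (0.62 ± 0.09) and in CD201+CD48+ cells (0.48 ± 0.09). The gene that fell against CD201-KSL cells in CD201+CD48- cells was Ifi30 (-0.85 ± 0.22), which encodes the endosomal thiol reductase GILT, and that in CD201+CD48+ cells was Ctsd (-0.30 ± 0.09), the cathepsin D gene, whose call was absent in 6 of 17 alternatives (edgeR adjusted p = 0.0251, from 9.5e-05 to 0.259). The asparagine endopeptidase gene Lgmn, drawn beside the cathepsins, averaged 5.52, 2.94 and 1.09 CPM. Lgmn, Ifi30, Ctsd and Cst3 were named after their values were seen. Ctss, Ctsh and Lgmn passed the count filter through their CD201+ libraries, Ctsh mainly through those of CD201+CD48-. Their calls, counted above, are therefore not independent of that filter.

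**Figure D4:**
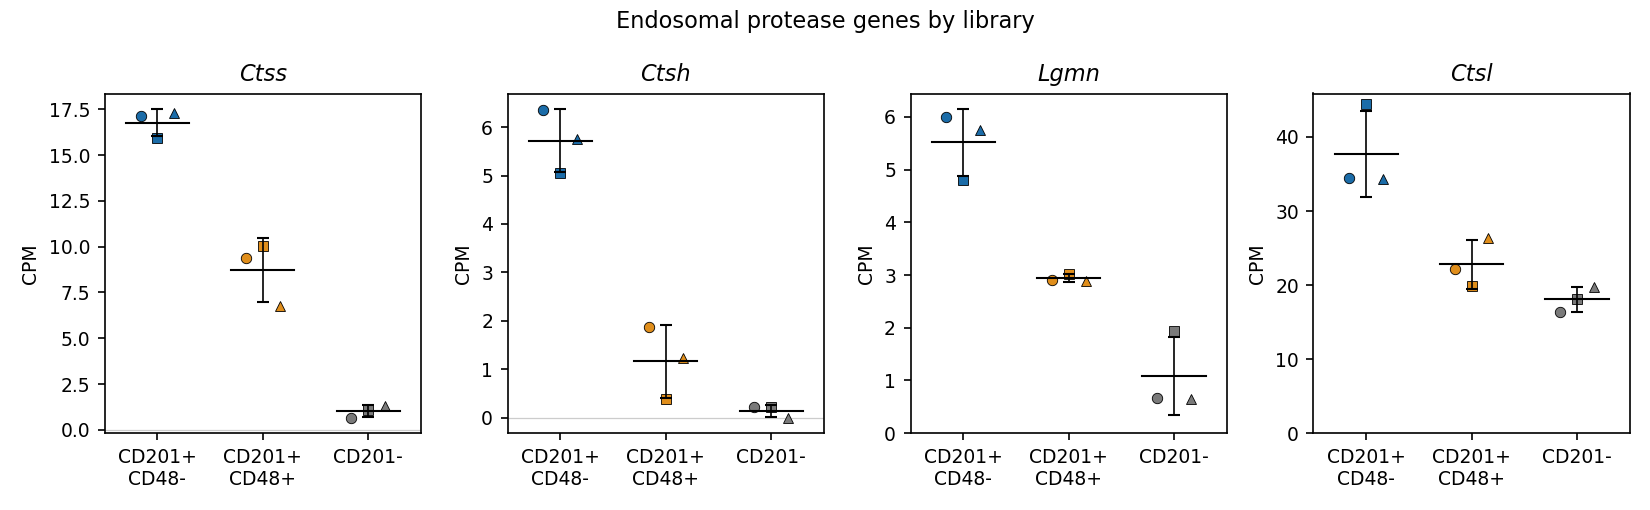
Level in CPM (vertical axes, linear) of the endosomal protease genes Ctss, Ctsh, Lgmn and Ctsl in the 3 sorted populations; points are libraries (circle, square and triangle for replicates 1, 2 and 3), lines are means and bars SD. All 4 means descend from CD201+CD48- through CD201+CD48+ to CD201-KSL cells, Ctss from 16.8 to 1.02 CPM.

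Other genes of the class II region, those of the H2-O modulator that restrains H2-DM, were present at low level. H2-Oa averaged 2.88 ± 0.306, 5.01 ± 0.636 and 3.06 ± 0.375 CPM and H2-Ob 2.64 ± 0.646, 5.23 ± 0.623 and 4.07 ± 1.46 CPM from CD201+CD48- through CD201+CD48+ to CD201-KSL cells. H2-Ob was lower in CD201+CD48- than in CD201+CD48+ cells (-0.99 ± 0.31, edgeR adjusted p = 0.0443), which held in 6 of 16 alternatives (edgeR adjusted p from 0.00651 to 0.172) and in none that left out a CD201+ library, and H2-Oa did not pass (-0.77 ± 0.26, edgeR adjusted p = 0.0589). H2-Eb2 and H2-Ea-ps had 0 counts in all 9 libraries. Of the list of 7 symbols, 6 had a row and 3 were tested. Brd2 was the only one called against CD201-KSL cells, lower in CD201+CD48- (-0.51 ± 0.10) and in CD201+CD48+ cells (-0.38 ± 0.10). In these comparisons 24.2% and 14.8% of all tested genes were called higher, and 23.9% and 14.3% lower. With so few genes tested, the count is not read as a result about the list.

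Of 19 regulators upstream of class II genes, a list also chosen with earlier results of these data known, 17 had enough counts. The exceptions were Irf4, with 15, 8 and 0 counts over the CD201+CD48-, CD201+CD48+ and CD201-KSL groups, and Prdm1, with 5, 14 and 2, both transcription factor genes named after their values were seen. Against CD201-KSL cells, 10 rose and 1 fell in CD201+CD48- cells (median log2 fold change 0.40), where 24.2% of all tested genes rose and 23.9% fell. In CD201+CD48+ cells 8 rose and none fell (median 0.30, 12 and 0 when scaled by library size alone), beside 14.8% and 14.3% of all genes. Between the CD201+ populations 2 were higher in CD201+CD48- cells and none lower (median 0.10), near the 9.05% and 6.31% of all genes. The interferon gamma receptor chain gene Ifngr2 averaged 70.5 ± 3.43, 60.2 ± 5.23 and 30.6 ± 2.71 CPM. Irf2, an interferon regulatory factor gene, averaged 135.0 ± 1.64, 105.3 ± 3.85 and 78.2 ± 13.9 CPM.

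Of the ubiquitin ligase and co-stimulation genes, 4 of the 8 with a row were tested and 3 were higher in each CD201+ population than in CD201-KSL cells (medians 1.11 and 0.96), beside 24.2% and 14.8% of all genes. None passed between the CD201+ populations (edgeR, 0 of 4; median 0.21), where 2 had an unadjusted p below 0.05, DESeq2 and limma-voom called 0, and leaving out CD201-KSL replicate 3 gave 2 calls. Icosl, the ligand gene of the T cell receptor ICOS, averaged 70.3 ± 3.02, 62.6 ± 1.13 and 16.1 ± 0.713 CPM. Cd274, which encodes the inhibitory ligand PD-L1, averaged 102.2 ± 6.44, 86.2 ± 2.28 and 57.6 ± 4.13 CPM, and Pdcd1lg2, which encodes PD-L2, 9.95 ± 1.24, 9.42 ± 3.02 and 3.8 ± 1.59 CPM. March8, a ligase gene of class II turnover, averaged 40.9, 32.9 and 35.4 CPM and passed in no comparison. The co-stimulatory genes Cd40, Cd80 and Cd86, named after their values were seen, had 13, 1 and 31 counts over all libraries.

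Of 16 MHC class I genes, all tested, 6 rose and 5 fell in CD201+CD48- against CD201-KSL cells (median log2 fold change 0.16; 8 and 3 when scaled by library size alone), 3 and 3 in CD201+CD48+ against CD201-KSL cells (median -0.05), and 3 higher and none lower between the CD201+ populations (median 0.06). Over all tested genes the shares that rose and fell were 24.2% and 23.9%, 14.8% and 14.3%, and 9.05% and 6.31% in these comparisons, so the counts are not read as a result about class I genes. Nlrc5, which encodes the class I counterpart of CIITA, averaged 145.4 ± 6.45, 137.9 ± 1.12 and 106.4 ± 3.92 CPM (log2 fold change 0.45 ± 0.07 for CD201+CD48- against CD201-KSL cells). The peptide-trimming enzyme gene Erap1 was also higher there (0.47 ± 0.07), and the chaperone genes Canx (-0.64 ± 0.12) and Pdia3 (-0.42 ± 0.08) were lower.

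Markers of cells that normally carry class II were read beside these values. Of 14 dendritic cell markers, all with a row, 5 were tested, and their summed level was 82.4 to 86.9 CPM in CD201+CD48-, 78.8 to 80.5 in CD201+CD48+ and 53.5 to 57.5 in CD201-KSL libraries. Against CD201-KSL cells 3 rose and 1 fell in CD201+CD48- cells (median 0.67), and 2 rose and none fell in CD201+CD48+ cells (median 0.54), comparisons in which 24.2% and 23.9%, and 14.8% and 14.3%, of all genes rose and fell. Between the CD201+ populations 1 was higher and 1 lower (median 0.12), beside 9.05% and 6.31% of all genes. Clec9a is 1 of the 3 that rose in CD201+CD48- cells and is the 1 higher between the CD201+ populations. It passed the count filter through the 3 CD201+CD48- libraries alone, the group where it was highest, so its calls are not read as a result. Zbtb46, a transcription factor gene of classical dendritic cells that is also in the regulator list, averaged 15.1 ± 1.75, 10.8 ± 1.19 and 3.8 ± 1.39 CPM, and Ly75, which encodes the uptake receptor DEC-205, 54.7 ± 1.68, 53.0 ± 0.963 and 36.5 ± 2.12 CPM. Most of the summed level of the list came from Ly75 and Zbtb46 in each population. Clec9a, a receptor gene of cross-presenting dendritic cells, had 52, 7 and 8 counts over the groups, whereas the lectin gene Clec10a ran the other way with 10, 78 and 93. Clec10a is the 1 that fell in CD201+CD48- cells and the 1 lower between the CD201+ populations. It passed the count filter through the CD201+CD48+ and CD201-KSL libraries alone, where it was higher, so its calls are not read as a result either. The defining genes Itgax, Siglech, Batf3 and Ccr7 had 4, 3, 2 and 5 counts over all 9 libraries.

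Of 12 B cell markers, 2 were tested, Ighm and Cd79b, both higher in CD201+CD48- than in CD201-KSL cells (1.91 ± 0.38 and 1.13 ± 0.28), as were 24.2% of all genes. The list summed to 15.2 to 16.4 CPM in CD201+CD48-, 9.91 to 13.9 in CD201+CD48+ and 3.51 to 8.63 in CD201-KSL libraries. In CD201+CD48+ against CD201-KSL cells Ighm was higher (1.39 ± 0.39, edgeR adjusted p = 0.0139, from 0.00488 to 0.063 over 16 alternatives, 2 of which, without CD201+CD48+ replicate 2 or 3, ended the call) and Cd79b did not pass (0.74 ± 0.29, edgeR adjusted p = 0.0628), and neither passed between the CD201+ populations. Ighm, with 8, 6 and 6 counts in the CD201-KSL libraries, passed the count filter through its CD201+ libraries alone. Its calls against CD201-KSL cells are therefore not independent of that filter. Ms4a1, Fcrla and Blnk had 0 counts in all libraries, and Cd79a had 1.

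Monocyte and macrophage markers, 14 in all with 5 tested, stood out in CD201+CD48- libraries at a summed 122.2 to 141.4 CPM, against 14.7 to 21.5 in CD201+CD48+ and 18.8 to 22.2 in CD201-KSL libraries. In CD201+CD48- cells 4 of the 5 were higher than in either other population (medians 0.97 and 1.60), beside 24.2% and 9.05% of all genes. Most of that sum came from Vcan, a matrix proteoglycan gene, at 70.3 ± 1.33, 4.89 ± 0.853 and 5.53 ± 1.34 CPM, and F13a1, the coagulation factor XIII gene that platelets also carry, at 43.5 ± 8.32, 0.76 ± 0.237 and 3.21 ± 0.474 CPM. In CD201+CD48+ against CD201-KSL cells, where Cd74 was higher, Vcan did not pass (-0.19 ± 0.22, edgeR adjusted p = 0.544) and F13a1 was lower (-2.04 ± 0.41, edgeR adjusted p = 0.00185). The Fc receptor gene Fcgr1 had 57, 24 and 28 counts over the groups and Cd68, a lysosomal membrane protein gene, 170, 136 and 94. Against CD201-KSL cells the Fcgr1 call was absent in 9 of 16 alternatives (edgeR adjusted p = 0.0458, from 0.0241 to 0.205), and against CD201+CD48+ cells the Cd68 call in 7 of 17 (edgeR adjusted p = 0.0404, from 0.00356 to 0.163). Csf1r, the gene of the receptor on which macrophages depend, had 47, 52 and 39 counts over the groups and passed in no comparison in the edgeR test (adjusted p = 0.641, 0.973 and 0.7). Other defining macrophage genes were at or near 0: Adgre1 had 3, 1 and 0 counts, and C1qa, C1qb and C1qc together had at most 2 counts in any group. The part of these markers in the course of Cd74 was not tested.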

How the data were processed

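Bulk RNA of 9 libraries was analysed, 3 for each of 3 sorted populations, grouped by the labels' titles. The labels' protocols give more than 5000 sorted cells per sample, SMARTer cDNA synthesis and paired reads of 36 nt. The authors deposited raw counts per gene symbol; mm10 and DESeq2 are named in the submitters' processing notes, while no aligner, counter or strand setting is given in the sources used here. The count table holds 3 further columns that match no label and were not used. A normalized table was not used.

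Genes passed filterByExpr of edgeR (minimum count 10), and 11619 were tested in edgeR 4.0.16 (R 4.3.3; TMM factors, glmQLFit and glmQLFTest, robust), all 9 libraries in one fit with group as the factor, adjusted by Benjamini-Hochberg over all genes (threshold 0.05). SE is the absolute log2 fold change over the root of F. CPM use TMM-scaled library sizes; log2 CPM used a prior count of 2. Gene lengths are unions of GENCODE vM39 exons, which may differ from the authors' annotation. A fold against 0 counts is a bound against 3 counts over the group; intervals and floors cover counting error only. Coordinates and promoters are RefSeq GRCm38.p6. Alternatives were DESeq2 1.42.0 as a test or for size factors, limma-voom (limma 3.58.1), library size alone, other filters, fits of 2 groups, a replicate block and leaving out each library. The fit was tested on simulated counts. Of each list, up to 4 genes with the smallest p were named, with all 9 members and the 5 genes most like Cd74; a few of these are not reported here. Members and lists were chosen with earlier results of these data known.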

Additional observations from a re-analysis of the deposited data

How the results depend on the processing

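Over 17 alternatives, the log2 fold changes of Cd74 and Fscn1 kept their direction and passed in all 3 comparisons, and H2-Ab1 stayed lower in CD201+CD48- than in CD201-KSL cells in the 16 that tested it. A filter of at least 30 counts in 3 libraries removed Cd83, H2-Ab1 and H2-DMb1 by its construction. Cd74 and Fscn1 were then the members called between CD201+CD48- and CD201-KSL cells and between the CD201+ populations. Fscn1 met this filter through the CD201+CD48- libraries alone, the group where it was highest. Its calls under this filter are therefore no support for it. Leaving out each library gave, Cd83 included, 4, 3 to 4 and 2 to 3 members called in the 3 comparisons. These counts are no support for Cd83, which passed the count filter through the CD201+CD48- libraries alone. Nor do they support the Fscn1 calls against CD201-KSL cells, as Fscn1 passed that filter through its CD201+ libraries alone. In the main fit 24.2% and 23.9%, 14.8% and 14.3%, and 9.05% and 6.31% of all genes were called higher and lower in these comparisons. The sign of H2-DMb1 between CD201+CD48+ and CD201-KSL cells was unstable: -0.01 became 0.12 with library size alone, 0.023 with limma-voom, 0.028 with a replicate block and 0.0012 with the 2 groups alone, and ranged from -0.31 to 0.39 without single libraries; none of these passed. Over all genes, 1785 were called between the CD201+ populations, 3339 with those groups alone and from 1023 to 3534 without single libraries, the highest without CD201-KSL replicate 3; the cause was not tested. Library size alone moved the median of all genes by 0.17 and 0.13 for the comparisons with CD201-KSL cells. Same-numbered replicates did not deviate together (r from -0.113 to 0.0447). These values show no large effect shared by number, and cannot decide whether replicates were paired, as counting noise lowers r. With the replicate block 4, 3 and 3 members were called, Cd83 included, H2-DMa being the call lost. Depth limits H2-Aa, H2-Eb1 and Ciita, with at most 3 counts in any library.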
